A study of Homo sapiens with 60 samples.

Results

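The 48 genes described here encode the working parts of mitosis: the kinases and cyclins that start it, the kinetochore and spindle, the checkpoint, the passenger complex, the cytokinesis machinery and the proteins that let chromosomes separate. They were listed by name, with no rule on measured values, but with earlier results of these data known. All 48 were found among the 60675 genes of the count table and passed the filter on low counts. The samples were 60 RNA-seq libraries of HepG2, a line from a human liver tumour that keeps much of the hepatocyte programme, treated for 24 h. The vehicle group had 3 libraries (0.1% DMSO in the sample labels, 2% in the series text). Each of 8 plant or fungus extracts was given at 500 µg/mL (High), 100 µg/mL (Medium) and 20 µg/mL (Low). The water extracts were the multi-herb formulas Sibjeondaebo-tang (SDT, 3 libraries per dose) and Palmul-tang (PMT, 2 libraries per dose). The ethanol extracts were Poria Cocos, Atractylodis Rhizoma, Glycyrrhizae Radix and Panax Ginseng (Poria, Atractylodis, Glycyrrhiza and Ginseng, 3 libraries per dose each), and Angelicae Gigantis Radix and Paeoniae Radix (Angelica and Paeonia, 1 library per dose each). All came from 1 cell line, and the labels do not say whether replicates were separate cultures, so p-values measure the spread between these libraries, which may be technical.

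Mitosis is switched on when CDK1 pairs with cyclin B and is freed of its inhibitory phosphates by CDC25 phosphatases. The checkpoint holds back the anaphase-promoting complex until every kinetochore is attached, after which the complex and its activator CDC20 direct the destruction of securin and cyclin B. Most of these genes are transcribed late in the cell cycle under the MuvB core, which joins B-MYB and FOXM1 in dividing cells and the DREAM repressor in resting ones, and which binds a promoter element called the CHR (cell cycle genes homology region), often near CCAAT boxes bound by NF-Y. RNA from a whole culture cannot tell fewer cells in mitosis from less mitotic RNA in each cell.

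Promoter windows from RefSeq (GRCh38.p14, 250 bases before to 50 after each start) were matched by symbol for 40 of the 48 genes; FOXM1, BIRC5, BUB3, TTK, TPX2, AURKA, RACGAP1 and UBE2C were not matched. The windows were searched on both strands for the CHR, written as TTTGAA or TTCGAA, and for CCAAT. A CHR stood in 29 of the 40 windows (72.5%), against 16.6% of the 27305 windows in the table, and CCAAT in 32 (80%), against 35.7%. Both motifs stood in 25 windows (62.5%), against 6.58%, and a CHR lay from 60 bases before to 50 after the start in 25 (62.5%), against 5.46%. Among 54 further cell-cycle-regulated mitosis genes, 33 of 46 windows held a CHR (71.7%), while the lists of constitutive mitotic machinery and of DNA replication had 7 of 38 (18.4%) and 2 of 26 (7.69%). These counts describe letters and not bound sites. The 4 windows below belong to the genes with the strongest fall between Low and High Glycyrrhiza among those holding a CHR, and the last to CDC25B, which changed least; capitals mark CHR and CCAAT matches, and in MKI67 the second CHR and a CCAAT read from the other strand overlap.
TOP2A: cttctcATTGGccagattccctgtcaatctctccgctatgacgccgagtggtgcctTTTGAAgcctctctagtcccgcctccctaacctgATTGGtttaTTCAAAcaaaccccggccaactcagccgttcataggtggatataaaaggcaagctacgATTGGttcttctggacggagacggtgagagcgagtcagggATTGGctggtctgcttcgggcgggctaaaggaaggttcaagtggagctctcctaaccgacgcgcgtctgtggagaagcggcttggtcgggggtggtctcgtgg
KIF11: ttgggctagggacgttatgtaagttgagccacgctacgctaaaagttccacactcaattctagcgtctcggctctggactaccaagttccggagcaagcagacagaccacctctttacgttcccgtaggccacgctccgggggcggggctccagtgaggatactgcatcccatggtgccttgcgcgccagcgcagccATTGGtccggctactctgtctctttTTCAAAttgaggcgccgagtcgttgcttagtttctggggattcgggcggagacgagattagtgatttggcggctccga
MKI67: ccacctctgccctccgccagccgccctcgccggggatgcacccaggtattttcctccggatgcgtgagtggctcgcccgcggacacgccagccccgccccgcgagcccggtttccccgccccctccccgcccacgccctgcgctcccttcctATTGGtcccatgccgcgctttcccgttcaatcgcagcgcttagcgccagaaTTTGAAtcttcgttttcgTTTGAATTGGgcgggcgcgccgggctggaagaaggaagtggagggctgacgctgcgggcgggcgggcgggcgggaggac
ANLN: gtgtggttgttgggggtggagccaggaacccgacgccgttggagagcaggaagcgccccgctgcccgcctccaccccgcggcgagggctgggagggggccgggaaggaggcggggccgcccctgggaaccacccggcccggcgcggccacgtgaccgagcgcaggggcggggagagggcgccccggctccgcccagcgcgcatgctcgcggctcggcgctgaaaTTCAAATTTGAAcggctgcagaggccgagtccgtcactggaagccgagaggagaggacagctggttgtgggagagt
CDC25B: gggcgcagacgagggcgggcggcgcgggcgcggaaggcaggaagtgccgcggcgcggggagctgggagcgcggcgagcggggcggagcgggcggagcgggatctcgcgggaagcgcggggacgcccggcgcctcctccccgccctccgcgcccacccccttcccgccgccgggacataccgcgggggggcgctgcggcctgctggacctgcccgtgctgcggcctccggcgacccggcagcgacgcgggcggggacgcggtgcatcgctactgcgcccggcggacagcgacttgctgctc

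The windows lie at chr17:40417847-40418146 on the minus strand (TOP2A), chr10:92592880-92593179 on the plus strand (KIF11), chr10:128126374-128126673 on the minus strand (MKI67), chr7:36389612-36389911 on the plus strand (ANLN) and chr20:3786701-3787000 on the plus strand (CDC25B). KIF11, MKI67 and ANLN each had a CHR whose first base was 28, 29 and 26 bases before the start, and TOP2A had CHR letters only farther out, 194 and 151 bases before it, with 4 CCAAT matches. CDC25B had neither motif. KIF20A, the gene with the largest fall, held 2 CCAAT matches and no CHR in its window. The 29 genes with a CHR had a median High against Low log2 change of -1.31 in Glycyrrhiza (range -1.63 to -0.78) and the 11 without one of -1.20 (range -2.01 to -0.23), so both sets spanned much of the same range.

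Libraries held between 19057227 and 33233238 counts. Levels below are CPM, counts per 1000000 of a library total scaled by TMM factors. All 12 hepatocyte markers stood above 1 CPM in every library, their sum running from 46630 to 71586 CPM. It was 61148 to 62796 in vehicle and 46630 to 49278 in Glycyrrhiza High. Of 6 fibroblast markers, 5 were under 1 CPM everywhere; PDGFRB reached 17.7. The 5 endothelial markers summed to 1.66 to 3.22 CPM. Of 6 leukocyte markers, 3 were under 1 CPM everywhere, while LYZ reached 2094. Transcripts of the mitochondrial genome took 13.4% to 15.2% of counts in vehicle, 15.1% to 17.0% in Glycyrrhiza Low and 17.8% to 18.4% in Glycyrrhiza High, 15.8% to 17.5% in Poria Low and 19.7% to 22.3% in Poria High. With these genes removed before scaling, the High against Low counts described below were again 48 genes lower in Glycyrrhiza and 42 in Poria, with median log2 changes of -1.29 and -0.33. The part of the mitochondrial share itself in these changes was not tested. The sample descriptions carry a set code that differs between vehicle and each pair of extracts, so code and treatment cannot be told apart in any comparison with vehicle; within an extract the code is shared.

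The summed level of the 48 genes was 4396 to 4561 CPM in vehicle. It was 4866 to 4892 in Glycyrrhiza Low, 4915 to 5070 in Medium and 1954 to 2030 in High, so that the High libraries lay far below all others while Low and Medium lay side by side. In Poria the sum was 4481 to 4694 at Low, 4312 to 4396 at Medium and 3688 to 3828 at High, with no overlap between doses. In SDT, PMT, Atractylodis and Ginseng all sums stood between 4619 and 4966. Per kilobase of the longest annotated transcript, PLK1 had the highest vehicle level of the 48 (136 CPM per kb), followed by AURKA (96.9) and TOP2A (84.6), and KIF14 the lowest (3.17).

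**Figure D1:**
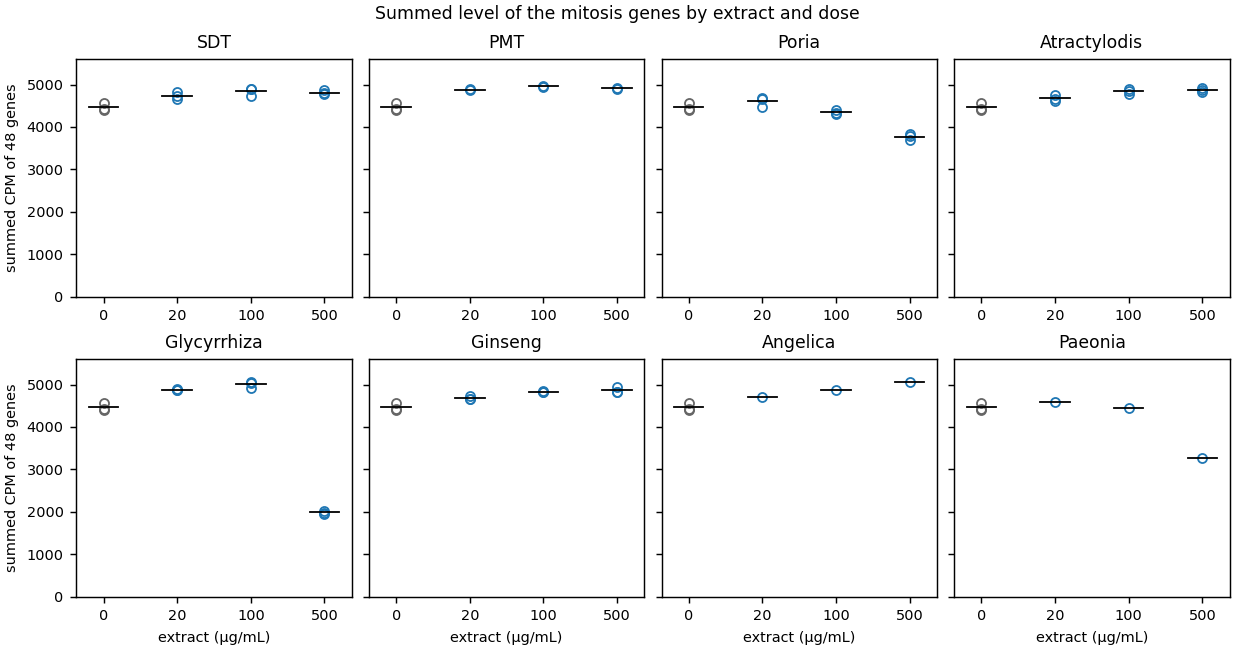
Summed CPM of the 48 mitosis genes (vertical axis) by dose of each extract in µg/mL, with vehicle at 0; circles are libraries and bars group means. Glycyrrhiza at 500 µg/mL sits at 1954 to 2030 CPM and Poria at 3688 to 3828, below all vehicle libraries at 4396 to 4561; Paeonia at 500 µg/mL, a single library, is at 3270.

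**Figure D2:**
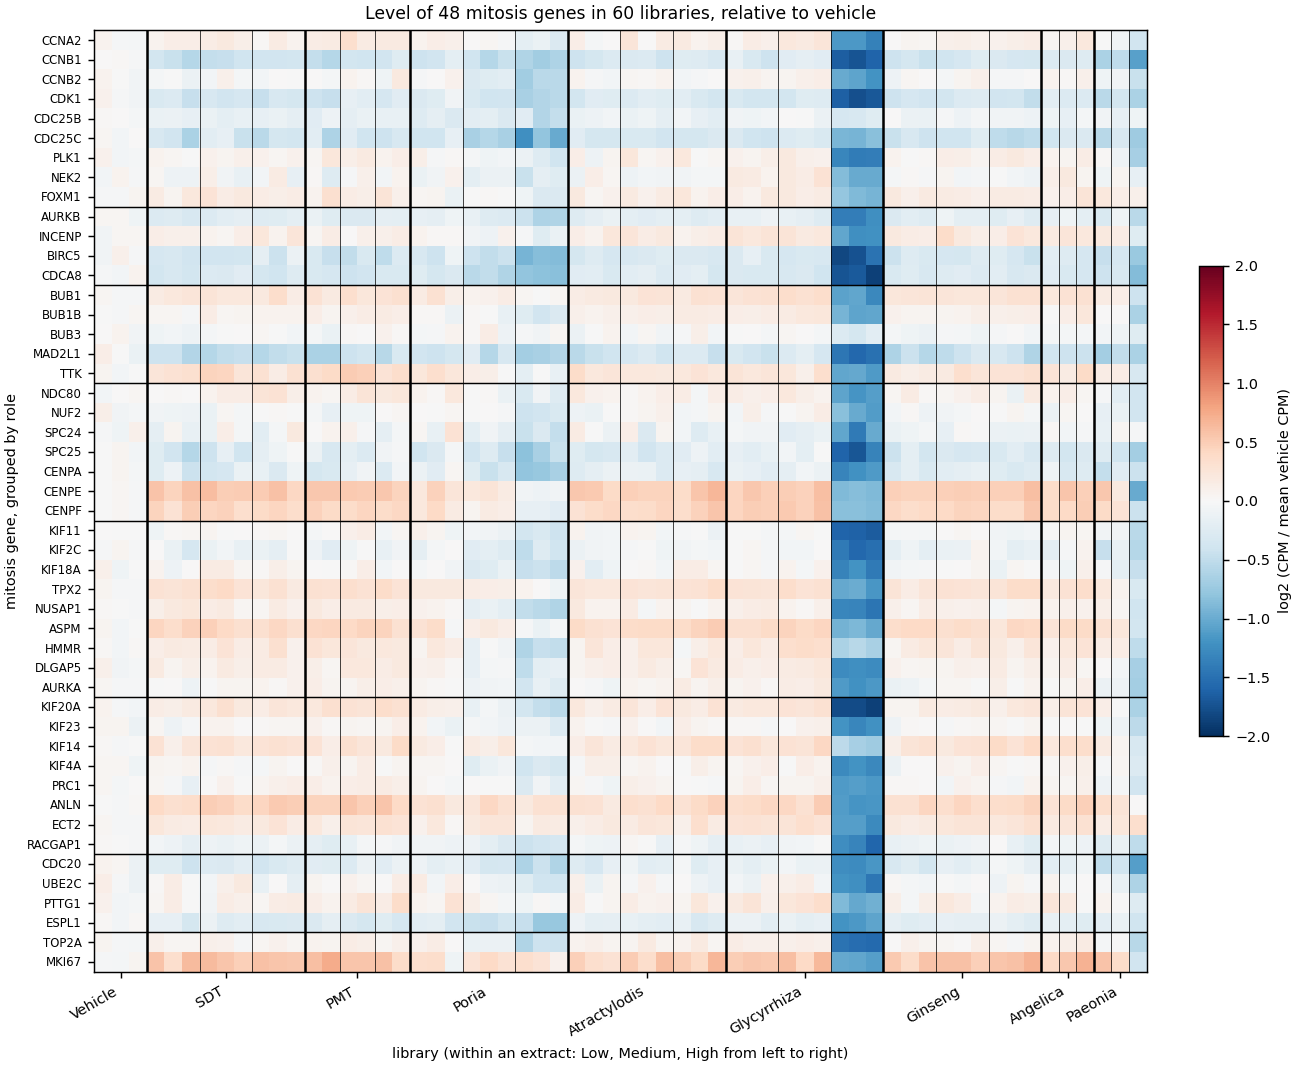
Level of each gene (rows, grouped by role) in each library (columns) as log2 of its CPM over the vehicle mean; thick lines part the extracts and thin lines the doses. The 3 Glycyrrhiza High libraries are blue in all 48 rows, Poria High is paler blue in most, and CENPE, CENPF, ASPM, ANLN and MKI67 are red in most other treated libraries.

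Between Low and High Glycyrrhiza every one of the 48 genes fell (edgeR quasi-likelihood test, Benjamini-Hochberg adjusted p at most 0.05 over all 16284 genes tested, named "called" below), while 27.8% of all genes were called lower. Every High library lay below every Low library for all 48, and for 31.5% of all genes. The median log2 change was -1.29, against 0.01 for all genes tested, and the range ran from -2.01 (KIF20A) to -0.23 (CDC25B). The standard errors lay between 0.042 and 0.11, and the highest adjusted p was 1.2e-04.

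Among the 9 kinases, cyclins and entry regulators, the median was -1.16. CCNB1, the mitotic cyclin B1, stood at 107, 95.7 and 88.4 CPM in the Low libraries and at 37.6, 35.6 and 39.0 in the High ones (log2 -1.37, SE 0.058, adjusted p = 1.28e-24). Its partner CDK1 went from 54.2, 52.0 and 52.2 CPM to 21.7, 19.9 and 20.7 (log2 -1.34, SE 0.057). PLK1, the kinase that drives centrosome maturation and spindle assembly, went from 323, 314 and 330 CPM to 122, 116 and 116 (log2 -1.45, SE 0.059). In each case the High libraries lay close together and far under every Low library. The phosphatases that activate CDK1 changed least of the role group. CDC25B was at 76.8, 75.1 and 77.1 CPM at Low and at 63.8, 64.1 and 67.5 at High (log2 -0.23, SE 0.049, adjusted p = 1.25e-04). CDC25C moved from 17.8, 16.4 and 16.3 CPM to 11.6, 11.4 and 12.2 (log2 -0.52, SE 0.084). FOXM1, a transcription factor for many of these genes, fell by 0.98 on the log2 scale.

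The chromosomal passenger complex, which corrects faulty attachments and guides cytokinesis, showed a fall in all 4 of its transcripts. The log2 changes ran from -1.20 (AURKB, its kinase) to -1.45 (CDCA8, its borealin subunit, SE 0.049). CDCA8 was at 50.1, 49.4 and 49.6 CPM at Low and at 18.5, 19.1 and 16.7 at High. BIRC5, which encodes survivin, was at 108, 117 and 106 CPM at Low and at 37.4, 39.3 and 47.5 at High (log2 -1.42, SE 0.075). INCENP, the scaffold, fell by 1.39 on the log2 scale. Of the 5 checkpoint genes, BUB1 fell most, from 110, 113 and 114 CPM to 44.0, 45.0 and 38.0 (log2 -1.40, SE 0.050), and TTK, MAD2L1 and BUB1B fell by 1.29, 1.12 and 1.14 on that scale. BUB3 stood apart, at 117, 119 and 116 CPM at Low and 97.5, 93.3 and 103 at High (log2 -0.26, SE 0.049); it is a BUB1 partner that also serves outside mitosis.

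The 7 changes of kinetochore and centromere genes lay between -1.38 (SPC25) and -0.98 (NUF2), both members of the NDC80 microtubule-binding complex. CENPE, a kinetochore motor, and CENPF fell by 1.35 and 1.31 on the log2 scale, and CENPA, the centromeric histone, by 1.05. Of 9 spindle genes, KIF11, the motor that pushes spindle poles apart, fell from 86.4, 86.1 and 85.0 CPM to 28.8, 28.3 and 27.5 (log2 -1.60, SE 0.045). KIF2C, a microtubule-depolymerising kinesin, went from 55.4, 57.2 and 54.1 CPM to 20.8, 18.8 and 19.5 (log2 -1.49, SE 0.065). NUSAP1, a spindle bundling protein, went from 86.6, 89.7 and 89.9 CPM to 32.7, 32.4 and 29.4 (log2 -1.49, SE 0.050). HMMR fell least of the 9, by 0.78 on the log2 scale.

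Cytokinesis genes held the largest change of all. KIF20A, the kinesin that carries the passenger complex to the central spindle (chr5:138178719-138187715, plus strand, GENCODE 29), stood at 92.1, 94.2 and 94.2 CPM at Low and at 23.5, 23.7 and 22.3 at High (log2 -2.01, SE 0.053, adjusted p = 4.84e-32). ANLN, the anillin scaffold of the contractile ring, went from 153, 156 and 161 CPM to 55.7, 53.3 and 54.1 (log2 -1.52, SE 0.057). ECT2, which activates RhoA at the division plane, went from 81.3, 82.7 and 80.6 CPM to 31.5, 31.3 and 27.9 (log2 -1.42, SE 0.050), and KIF14 changed least of the 8 (log2 -0.90). The 4 partners of the anaphase-promoting complex and separase fell by 0.98 (ESPL1, separase) to 1.24 (UBE2C, its ubiquitin-conjugating enzyme) on the log2 scale. TOP2A, which untangles sister DNA, went from 538, 523 and 520 CPM to 175, 169 and 166 (log2 -1.63, SE 0.045), and MKI67, the Ki-67 protein that coats mitotic chromosomes, from 490, 505 and 498 to 171, 169 and 163 (log2 -1.56, SE 0.089).

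Of the 48 genes, 7 share exon bases with a tested gene on the other strand, and whether reads were counted by strand is not given in the sources used here. KIF20A shares 68 bases with CDC23, CDC25C 276 with FAM53C and PRC1 334 with PRC1-AS1. The others share 42 to 144 bases (PLK1, KIF18A, RACGAP1 and CCNA2).

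Neighbouring gene lists moved to different extents in the same comparison. All 54 further cell-cycle-regulated mitosis genes fell (median log2 -1.06), ZWINT, a kinetochore adaptor, the most, from a mean of 66.9 CPM to 20.8 (log2 -1.69). All 32 DNA replication genes fell as well (median -1.23), with the helicase subunit MCM5 at -1.85. Of 40 constitutive machinery genes, whose products serve mitosis but are made throughout the cycle, 28 were called lower and 2 higher (median -0.24), where 28.4% of all genes were called higher; HAUS1 (augmin complex) had the largest fall at -0.76 and CDC16 (anaphase-promoting complex) the largest rise at 0.42. Of 20 regulators (MuvB, B-MYB, E2F and pocket proteins), 17 were lower and 2 higher, from E2F8, a repressor E2F, at -1.98 to LIN37, a MuvB subunit, at 0.39.

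**Figure D3:**
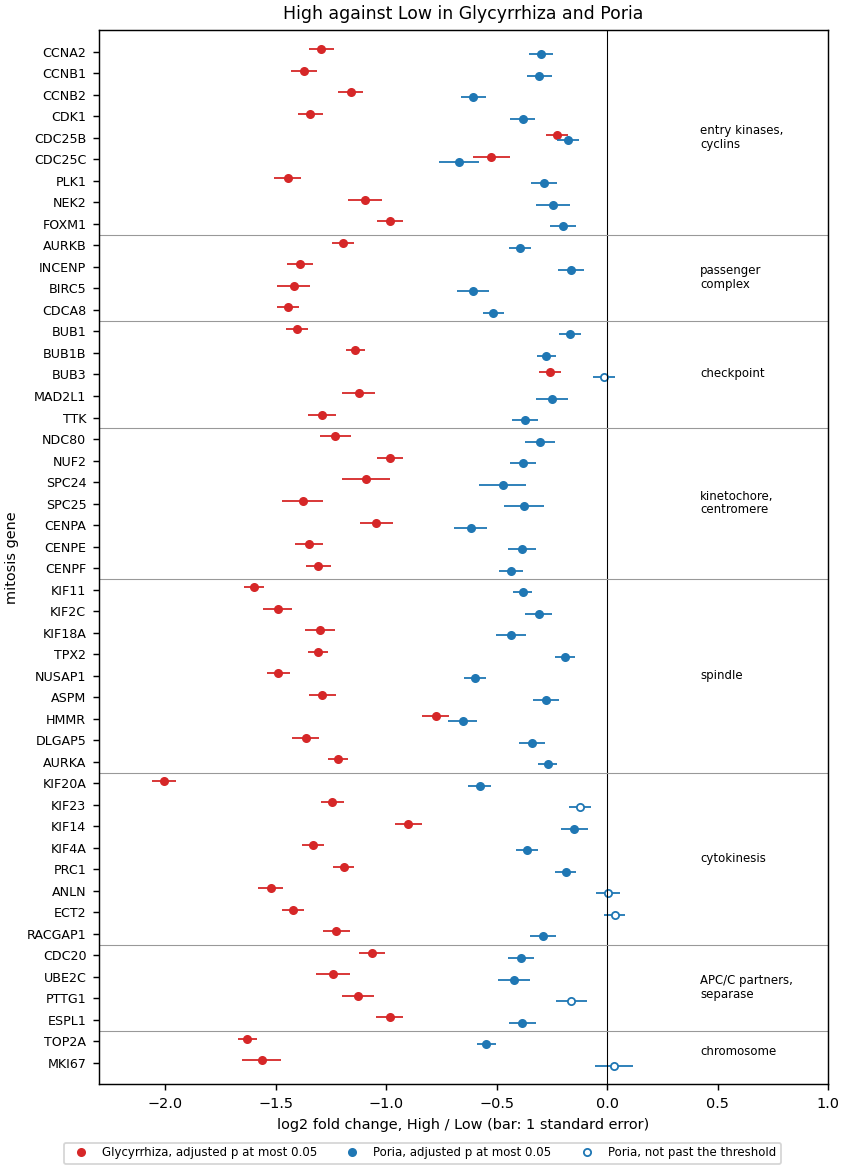
High against Low log2 fold change of the 48 genes, by role, for Glycyrrhiza (red) and Poria (blue); bars are 1 standard error and open circles genes not called. Red points run from -2.01 (KIF20A) to -0.23 (CDC25B), and blue points from -0.67 (CDC25C) to 0.03 (ECT2).

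Between Low and High Poria, 42 of the 48 genes fell and 0 rose (44 fell at an unadjusted p under 0.05, and DESeq2 called 41 lower and 0 higher), while 18.4% of all genes were called lower. The median log2 change was -0.32. Every High library lay below every Low library for 41 of the 48, and for 20.5% of all genes. The genes not called were BUB3 (log2 -0.01), KIF23 (-0.12), ANLN (0.01), ECT2 (0.03), PTTG1 (-0.16) and MKI67 (0.03), with standard errors from 0.049 to 0.086.

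All 9 entry genes fell, though over 12 other settings NEK2 stayed called in 9, CDC25B in 10 and FOXM1 in 11. CDC25C, among the least changed genes in Glycyrrhiza, had the largest change here: 16.6, 16.4 and 19.4 CPM at Low, 13.9, 14.6 and 13.9 at Medium, and 9.29, 12.7 and 10.9 at High (High against Low log2 -0.67, SE 0.090, adjusted p = 4.32e-08). CCNB2, cyclin B2, went from 67.6, 69.1 and 72.7 CPM at Low through 55.7, 57.5 and 59.3 to 42.3, 47.3 and 47.3 (log2 -0.61, SE 0.056). For both genes the 3 doses did not overlap and stood in dose order. CCNB1 and CDK1 fell by 0.31 and 0.38 on the log2 scale. All 4 passenger genes fell, with BIRC5 at 105, 98.5 and 123 CPM at Low and 69.0, 72.7 and 72.0 at High (log2 -0.61, SE 0.073) and CDCA8 at 51.8, 47.9 and 50.1 against 35.5, 34.4 and 34.4 (log2 -0.52, SE 0.048). INCENP was at log2 -0.16 and stayed called in 9 of the 12 other settings. Of the checkpoint genes, TTK had the largest fall (log2 -0.37).

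All 7 kinetochore and centromere genes and all 9 spindle genes fell. CENPA was at 22.9, 21.3 and 25.5 CPM at Low and at 14.4, 14.7 and 16.0 at High (log2 -0.62, SE 0.075). SPC24, of the NDC80 complex, went from 16.7, 14.8 and 19.9 CPM to 11.9, 13.3 and 11.7 (log2 -0.47, SE 0.11), and CENPF from 175, 198 and 168 to 135, 135 and 128 (log2 -0.44, SE 0.055). HMMR, a hyaluronan receptor that also binds spindle microtubules, went from 40.9, 45.8 and 43.8 CPM through 35.1, 39.3 and 37.4 to 26.0, 28.5 and 27.9 (log2 -0.65, SE 0.064). NUSAP1 went from 85.9, 84.7 and 81.8 CPM through 71.2, 73.7 and 70.7 to 57.3, 55.5 and 53.2 (log2 -0.60, SE 0.050). KIF18A, a kinesin that damps chromosome movements, went from 15.5, 16.0 and 15.1 CPM at Low to 11.5, 11.8 and 11.1 at High (log2 -0.44, SE 0.066). Of 8 cytokinesis genes, 5 fell, led by KIF20A, which went from 90.9, 88.0 and 87.6 CPM through 73.1, 78.9 and 75.2 to 63.1, 58.5 and 56.2 (log2 -0.58, SE 0.050). KIF14, among these 5, stayed called in only 2 of 12 other settings. TOP2A fell by 0.55 on that scale, from 515, 538 and 490 CPM to 322, 367 and 363. MKI67 did not separate the doses, with 440, 446 and 327 CPM at Low and 440, 421 and 371 at High, and neither did ANLN, with 148, 150 and 139 against 138, 149 and 149.

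Among the other lists in Poria, 36 of 54 further mitosis genes fell and 2 rose (median log2 -0.25), and 21 of 32 DNA replication genes fell and 2 rose (median -0.20). The constitutive machinery had 5 genes called lower and 8 higher of 40 (median 0.02), where 20.0% of all genes were called higher. Of the 20 regulators 8 were called lower and 2 higher (median -0.09).

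The extracts also differed in where between the doses the change lay. In Glycyrrhiza, Medium against Low gave 0 of 48 calls (edgeR, 3 at an unadjusted p under 0.05, all higher, and 0 by DESeq2), with 3.56% of all genes called in either direction. High against Medium, which shares the High libraries with the comparison above, gave 48 of 48 lower, with 27.4% of all genes lower, KIF20A at -2.08 and CDC25B at -0.26. In Poria, 14 genes were already lower at Medium against Low, with 7.29% of all genes lower, among them CDC25C (log2 -0.31), CCNB2 (-0.28), CDCA8 (-0.26), CENPA (-0.24) and KIF20A (-0.23). No gene was called higher, except 1 without Poria Low replicate 2. The lower count was 9 without Poria Medium replicate 2 and 4 in a fit of the compared groups alone. High against Medium in Poria gave 34 lower, with 6.20% of all genes lower, led by BIRC5 and HMMR at -0.43 each. This count was 20 in a fit of the compared groups alone. Deviations of same-numbered libraries correlated in this comparison, and that pairing was not modelled. Tested directly, the Medium against Low change was lower in Poria than in Glycyrrhiza for 7 genes, with 1.54% of all genes lower: CDC25C (difference in log2 -0.41, SE 0.12), HMMR (-0.40), KIF20A (-0.31), CCNB2 (-0.30), CDCA8 (-0.23), AURKA (-0.21) and TOP2A (-0.21). That count was 2 without Poria Medium replicate 1, 3 without Poria Medium replicate 3, Glycyrrhiza Medium replicate 2 or Glycyrrhiza Low replicate 3, and 4 without Poria Low replicate 3, Glycyrrhiza Medium replicates 1 or 3, or Glycyrrhiza Low replicate 2.

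The High against Low change itself differed between extracts. It was lower in Glycyrrhiza than in Poria for 45 of the 48 genes, with 23.8% of all genes lower, and the largest differences were in MKI67 (-1.59, SE 0.12), ANLN (-1.53), ECT2 (-1.46) and KIF20A (-1.43). The 3 genes not called in that difference were CDC25C, CDC25B and HMMR, at 0.15 (SE 0.12), -0.05 (SE 0.071) and -0.12 (SE 0.089). Against the extract of the same set code, Glycyrrhiza was lower than Ginseng in all 48 genes, with 23.1% of all genes lower (KIF20A -2.10, CDC25B -0.22), and Poria was lower than Atractylodis in 38, with 8.66% of all genes lower (CDC25C -0.65, KIF20A and KIF18A -0.63 each).

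In the other replicated extracts few of these genes were called between doses. In Ginseng High against Low, 0 genes were lower and 2 higher, with 2.92% of all genes higher: CDC20, at 79.8, 84.8 and 77.6 CPM at Low and 97.6, 94.3 and 88.6 at High (log2 0.22, SE 0.057, adjusted p = 0.014 in edgeR), and AURKA (log2 0.16). At an unadjusted p under 0.05, 7 genes were higher and 0 lower, and DESeq2 called 3 higher and 0 lower. In Atractylodis, 0 were lower and 2 higher, with 3.39% of all genes higher: KIF18A (log2 0.19, SE 0.061) and AURKA (0.15, SE 0.044). There the deviations of same-numbered libraries correlated. A fit with a replicate block shared by all groups, which does not model pairing within Atractylodis alone, called 1 higher. At an unadjusted p under 0.05 the edgeR count was 6 higher and 0 lower, and DESeq2 called 1 higher and 0 lower. Leaving out any 1 of the 6 Ginseng libraries left 0 or 1 call, with 0 without High replicate 1 or Low replicate 1. In Atractylodis 0 calls were left without High replicate 1, Low replicate 2 or Low replicate 3, and 1 without High replicate 2 or High replicate 3. SDT and PMT gave 0 calls each in edgeR, with 1.04% and 0.516% of all genes called; 6 genes in each had an unadjusted p under 0.05, and DESeq2 called 1 in SDT and 0 in PMT, as did edgeR for SDT without Low replicate 1. Their median log2 changes were 0.04 and 0.03, with a range from -0.20 to 0.30 over both.

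Medium against Low gave 0 calls among the 48 in Ginseng, Atractylodis, SDT and PMT, where 0.00614%, 0%, 0.00614% and 0% of all genes were called. The genes with an unadjusted p under 0.05 numbered 3, 4, 1 and 5 in edgeR, all higher at Medium, and DESeq2 called 0 in each. The largest standard error of these comparisons was 0.13 on the log2 scale, reached in PMT with 2 libraries per dose. Same-numbered libraries correlated in the Atractylodis comparison, and that pairing was not modelled.

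Angelica and Paeonia had 1 library per dose, so their ratios have no replicate check and no test. In Paeonia, 44 of 48 genes were below Low at High, with a median log2 ratio of -0.43, against 0.005 for all genes tested. Of the 48, 11 lay past a 1.5-fold decrease, with 9.13% of all genes past it. Past 2-fold there was 1, CENPE, and the share of all genes past 2-fold was not computed. CENPE went from 58.6 CPM at Low and 45.8 at Medium to 20.0 at High (log2 ratio -1.55), MKI67 from 518 and 447 to 268 (-0.95), CENPF from 197 and 182 to 112 (-0.81), and KIF20A from 89.4 and 81.0 to 52.6 (-0.77). MAD2L1, CENPA, SPC24 and ECT2 had ratios above 0, ECT2 the highest at 0.18. The mitochondrial share was 22.7% in Paeonia Low, 15.7% in Medium and 20.1% in High, and its part in these ratios was not tested. In Angelica, 0 genes lay past a 1.5-fold decrease, with 6.00% of all genes past it, and the median ratio was 0.07.

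**Figure D4:**
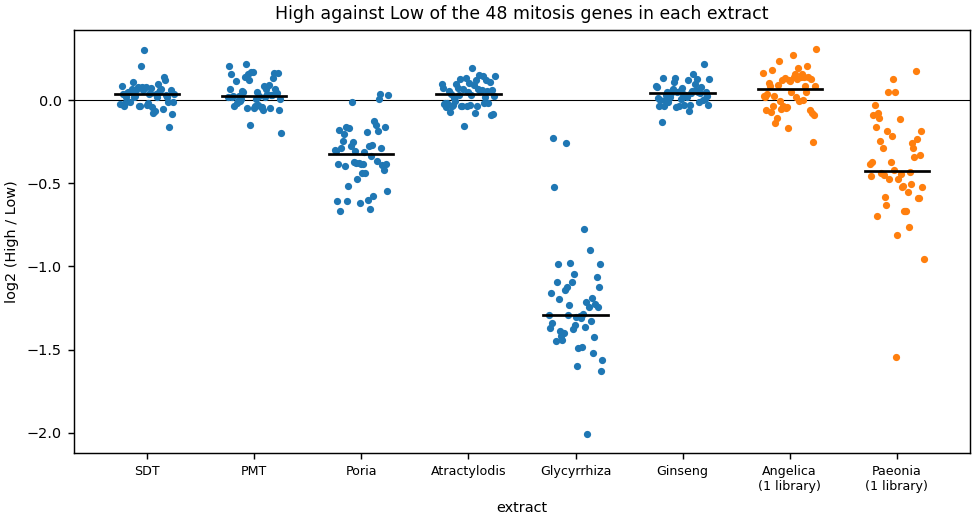
High against Low log2 change of each of the 48 genes (points) in each extract, with the median as a bar; orange points are ratios of single libraries with no test. The medians are -1.29 in Glycyrrhiza, -0.43 in Paeonia and -0.32 in Poria, and between 0.03 and 0.07 in the other 5 extracts.

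Against vehicle, genes of the list were called in both directions at the lowest dose of each of the 6 replicated extracts. These comparisons share the 3 vehicle libraries and are set side by side only. In Glycyrrhiza Low, 10 genes were lower and 17 higher than vehicle, with 14.5% and 15.2% of all genes so called. In Poria Low it was 9 and 8, with 9.32% and 9.90%. In Ginseng Low it was 12 and 12, with 16.6% and 16.8%, and in Atractylodis Low 11 and 12, with 13.1% and 13.7%. In SDT Low it was 12 and 14, with 17.6% and 18.3%, and in PMT Low 12 and 15, with 15.0% and 16.1%. The Poria counts were 4 and 4 in a fit of the compared groups alone, and the lower count was 5 without Poria Low replicate 2; the lower count of Glycyrrhiza was 6 without vehicle replicate 1, without vehicle replicate 2 or without Glycyrrhiza Low replicate 1.

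Lower genes included the entry genes CCNB1, CDK1 and CDC25C and the checkpoint gene MAD2L1. Among the 9 entry genes, 3 or 4 were called lower and 0 to 2 higher in each extract. MAD2L1 was the only 1 of the 5 checkpoint genes called lower. Another 3 checkpoint genes were called higher in Glycyrrhiza Low, and 2 in each other extract. MAD2L1, the checkpoint protein that inhibits CDC20, stood at 59.7, 54.2 and 49.9 CPM in vehicle and at 44.2, 41.8 and 40.2 in Glycyrrhiza Low (log2 -0.37), 40.8, 41.2 and 36.4 in SDT Low (-0.45) and 35.0 and 35.1 in PMT Low (-0.63). No Low library of these extracts reached the vehicle range. Its change was -0.36 in Poria, -0.53 in Ginseng and -0.45 in Atractylodis. CCNB1 stood at 118, 120 and 116 CPM in vehicle, and its Low against vehicle change was -0.28 in Glycyrrhiza, -0.31 in Poria, -0.40 in Ginseng, -0.34 in Atractylodis, -0.44 in SDT and -0.51 in PMT. CDC25C changed by -0.36, -0.30, -0.39, -0.31, -0.43 and -0.38 in the same order.

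Higher genes included CENPE, CENPF, ASPM, which focuses spindle poles, and ANLN. CENPE was at 39.8, 41.1 and 39.6 CPM in vehicle and at 54.3, 58.4 and 55.7 in Glycyrrhiza Low (log2 0.48, SE 0.060), and its change was 0.33 in Poria, 0.45 in Ginseng, 0.48 in Atractylodis, 0.55 in SDT and 0.55 in PMT. MKI67 was at 341, 340 and 363 CPM in vehicle, at 490, 505 and 498 in Glycyrrhiza Low and at 527 and 583 in PMT Low (log2 0.52 and 0.69), and it was not called in Poria Low (0.23). The vehicle libraries lay below all Low libraries of Glycyrrhiza and PMT for both genes. ANLN changed by 0.37 in Glycyrrhiza, 0.29 in Poria, 0.35 in Ginseng, 0.26 in Atractylodis, 0.37 in SDT and 0.46 in PMT.

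The 2 directions differed in median transcript length, taken as the longest GENCODE 29 basic transcript, though their ranges overlapped. In Glycyrrhiza Low the 10 lower genes had a median of 2149 nt and the 17 higher ones of 3964 nt. The medians were 2469 and 4256 nt in Poria Low, 2149 and 4597 in Ginseng Low, 2128 and 4597 in Atractylodis Low, 2149 and 4066 in SDT Low and 2319 and 3725 in PMT Low. Over the 48 genes, Spearman's rho between length and the Low against vehicle log2 change was 0.49 in Glycyrrhiza, 0.39 in Poria, 0.52 in Ginseng, 0.53 in Atractylodis, 0.53 in SDT and 0.50 in PMT. Over the 16174 tested genes with a length it was 0.18 to 0.28. These correlations are across genes, which are not replicates, and all 6 share the vehicle libraries. MAD2L1 (5468 nt) and ESPL1 (6623 nt) were long and lower, and PTTG1 (1070 nt) was short and higher in Glycyrrhiza Low. There the lower genes ran from 1254 to 6623 nt and the higher ones from 1070 to 12678 nt. The mitochondrial share also separated vehicle, at 13.4% to 15.2%, from most Low libraries, at 15.1% to 21.8% in these extracts. With the mitochondrial genes removed before scaling, the lower and higher counts at Low against vehicle were 11 and 16 in Glycyrrhiza, 10 and 8 in Poria, 12 and 12 in Ginseng, 11 and 11 in Atractylodis, 13 and 14 in SDT and 12 and 15 in PMT. None of them moved by more than 1 gene. This removal alters only the scaling and the set of genes tested, so the part of the mitochondrial share itself was not tested. The part of length was not tested. In Glycyrrhiza High against Low, rho was -0.17 over the 48 genes and -0.03 over all, and in Poria 0.38 and 0.14.

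**Figure D5:**
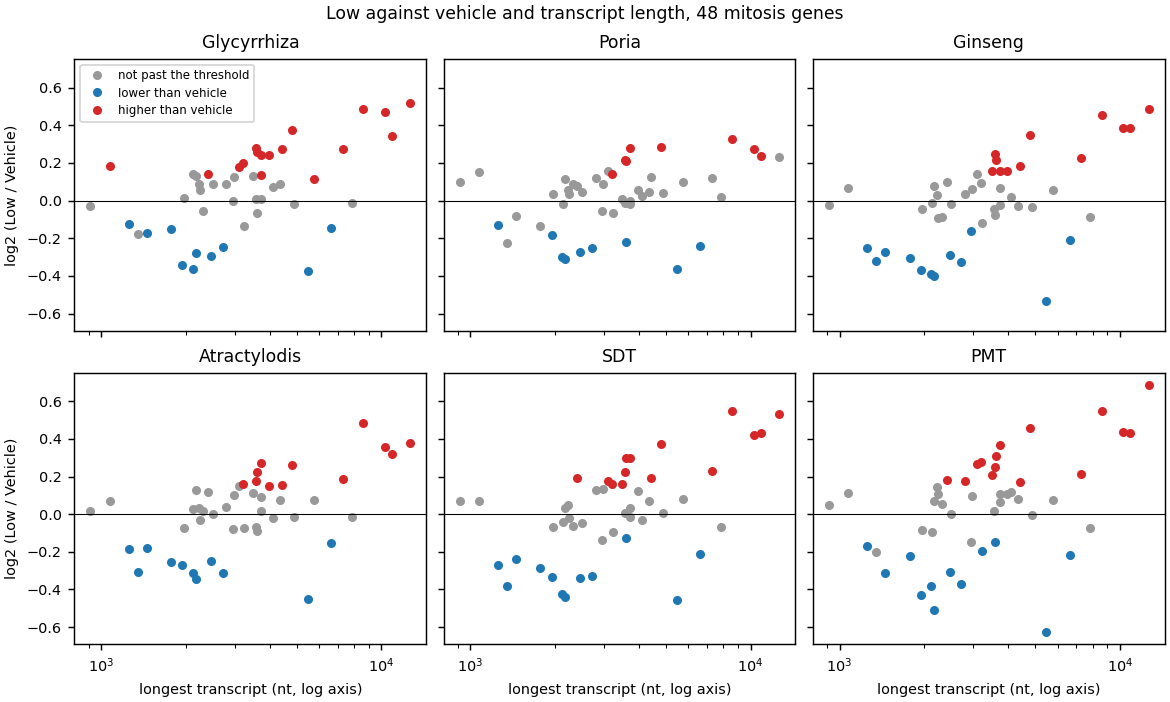
Low against vehicle log2 change of the 48 genes (vertical axis) against the length of their longest annotated transcript (horizontal log axis) in the 6 replicated extracts; blue genes were called lower, red ones higher and grey ones not called. The 4 longest red genes in the Glycyrrhiza panel, CENPE, CENPF, ASPM and MKI67, lie between 0.34 and 0.52, and the low point at 5468 nt in each panel is MAD2L1.

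The High groups were compared with the same 3 vehicle libraries. Ginseng High had 10 genes lower and 16 higher, with 17.8% and 18.5% of all genes so called. In Atractylodis High it was 11 and 15, with 16.7% and 17.3%, and in SDT High 10 and 16, with 16.4% and 17.8%. In PMT High it was 8 and 21, with 13.9% and 15.3%, and 5 and 12 without PMT High replicate 2; the higher count was 13 without vehicle replicate 2. Poria High had 36 lower and 3 higher, with 24.8% and 26.3%; the 3 higher genes were ANLN (log2 0.29), MKI67 (0.26) and ECT2 (0.16), and the largest falls were CDC25C (-0.97), BIRC5 (-0.86) and CDCA8 (-0.79). Glycyrrhiza High had all 48 lower and 0 higher, with 30.2% and 31.1%, led by KIF20A (-1.80), CDCA8 (-1.74) and CDK1 (-1.68). CENPE and CENPF, higher than vehicle at Low, were at -0.86 and -0.84 at High in Glycyrrhiza.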

How the data were processed

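HepG2 mRNA libraries were made with a directional kit from RNA with an integrity number above 7 and sequenced as 100 bp read pairs, per the labels' protocols. The authors deposited RSEM expected counts per gene (FastQC 0.11.9, Trim Galore 0.6.5, STAR 2.7.3a, RSEM 1.3.3, GRCh38, per the submitters' processing notes); the annotation release and the use of strand are not given in the sources used here. The deposited table holds 210 further sample columns, which were not used, and the wortmannin control is not analysed here. Expected counts were rounded to whole numbers. Ensembl identifiers were matched to symbols in a reference list of gene names, and to GENCODE 29 for coordinates and transcript lengths.

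Genes were filtered with edgeR 4.0.16 (filterByExpr, 16284 kept), scaled by TMM and fitted over the 19 groups that had replicates, 54 libraries in all (quasi-likelihood F-test, Benjamini-Hochberg over all genes kept, threshold 0.05). The fit gave a common biological coefficient of variation of 5.63%. Groups of 1 library were described by log2 ratios with a prior count of 2 and a fold limit of 1.5. The procedure was tested on simulated data. Standard errors are of the log2 change, derived as its absolute value over the square root of the F statistic.

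The 48 genes and the other lists were chosen with earlier results of these data known, and the High against Medium tests and the Medium against Low difference between Poria and Glycyrrhiza were added after the data were examined. The rule for named genes took the 12 called genes with the largest absolute log2 change in Glycyrrhiza and Poria High against Low, the 3 largest in the other comparisons, and those called against the majority. Every other gene given with values, among them CCNB1, CDK1, CDC25B, CDC25C and BUB3 in Glycyrrhiza, was chosen for its role or its place in the range after its values were seen.

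Replicate numbers in the labels were checked for pairing by the correlation of deviations from group means. Each of the 3 pairs correlated above 0.1 in Atractylodis High against Low (0.25 to 0.48), Atractylodis Medium against Low (0.16 to 0.55) and Poria High against Medium (0.28 to 0.55), and not in the other 23 comparisons. Pairing within those extracts was not modelled, as the only replicate block was shared by all groups. No 2 replicates agreed within sampling noise (lowest chi-square per degree of freedom 2.57). Alternatives were DESeq2 1.42.0, RLE factors, no filter, removal of the genes of the mitochondrial genome before scaling, fits of the compared groups alone, a replicate block and leaving out each library; for single libraries, RLE factors, a prior count of 0.5 and a 2-fold limit.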

Additional observations from a re-analysis of the deposited data

Results flagged for a closer look

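The High against Low change differed between extracts by a test of the difference itself (an interaction term in edgeR). It was lower in Glycyrrhiza than in Ginseng for 48 of the 48 genes, with 23.1% of all genes lower. It was lower in Poria than in Atractylodis for 38 (8.66% of all genes), and lower in Glycyrrhiza than in Poria for 45 (23.8%). The Medium against Low change was lower in Poria than in Glycyrrhiza for 7 of the 48 (1.54% of all genes). That count was 2 to 6 when single libraries were left out. No group held 4 or more libraries, so no single library could be tested as an outlier within its group.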

How the results depend on the processing

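Of 666 counts recomputed under other settings, 620 stayed within 1.5 times the reported count, a limit that 0 against 0 also meets. Of the recomputed log2 changes of genes named by the rule, 2028 kept direction and call. Another 119 kept direction but were no longer called, and no direction reversed. In Poria High against Low, some called genes did not stay called over all 12 settings. KIF14 stayed called in 2, NEK2 and INCENP in 9, CDC25B and BUB1 in 10, and FOXM1, TPX2 and PRC1 in 11. Among genes not called in Poria High against Low, 4 changed sign over 12 settings. These were MKI67 (log2 -0.10 to 0.11), BUB3 (-0.05 to 0.02), ANLN (-0.03 to 0.04) and ECT2 (-0.002 to 0.08). Leaving out the filter on low counts gave 1 gene higher in Ginseng High against Low, 0 in Atractylodis and 1 in SDT, 6 lower in Glycyrrhiza Low against vehicle and 4 for Poria against Glycyrrhiza at Medium. DESeq2 gave 1 gene higher in Atractylodis and 1 in SDT High against Low. Fitting only the compared groups gave 1 higher in Ginseng and 0 in Atractylodis High against Low, 1 higher in Glycyrrhiza Medium against Low, 4 lower in Poria Medium against Low, 4 lower and 4 higher in Poria Low against vehicle, 20 lower in Poria High against Medium and 4 for Poria against Glycyrrhiza at Medium; these fits hold fewer samples. The replicate block, shared by all groups, gave 1 higher in Atractylodis High against Low, and it moved no other count past 1.5 times. Removing the mitochondrial genes before scaling moved no count past 1.5 times. A 2-fold limit left 1 gene lower in Paeonia. Leaving out single libraries gave 0 to 1 higher in Ginseng, 0 to 2 in Atractylodis and 0 to 1 in SDT High against Low, 9 to 14 lower and 0 to 1 higher in Poria Medium against Low, 6 to 8 lower in Glycyrrhiza and 5 to 10 lower in Poria Low against vehicle, 5 to 9 lower and 12 to 18 higher in PMT High against vehicle, and 2 to 6 for Poria against Glycyrrhiza at Medium. The cause of these shifts was not tested. With 2 or 3 libraries per group, changes near the standard errors could not be told from 0.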
